A study of Mus musculus with 6 samples.

Results

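The β, γ, δ and ρ subunits of the GABA-A receptor were compared between mouse cortex and thymus by hybridization to an array of oligonucleotides from neurotransmission genes. Members were the spots whose printed class was GABA-A RECEPTORS and whose printed name was a β, γ, δ or ρ subunit, with α subunits and transporters left out. This gave 20 oligonucleotides (oligos) of the 590 on the array, from 10 sequence entries of 9 genes, and each oligo was printed on 2 spots. Described here are Gabrb1, Gabrb2, Gabrg1, Gabrg3, Gabrd, Gabrr1 and Gabrr2, and counts are over all 20 oligos. Gabrg1 is the name taken for the entries printed g1p and g1p2, and Gabrb1 that for the entry printed b1, whose accessions were not matched to a RefSeq gene. The accessions of the other 7 entries matched the printed gene. The arrays were hybridized with total RNA of adult B10D2 mice. One cortex pool was made from 6 animals and one thymus pool from 5, and each of 3 hybridizations per tissue used 15 µg of RNA that was copied into Cy5-labelled cDNA with random primers. The labels give no treatment. The 3 arrays of a tissue share a pool, so p-values measure the spread between hybridizations and not between animals. By its title the study dealt with the kinetics of on-chip hybridization, and no label states a question for the contrast of tissues.

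GABA is the main inhibitory transmitter of the cortex, and GABA-A receptors are chloride channels that open when it binds. They are pentamers of subunits from several families. In most of them α and β subunits form the GABA sites, a γ subunit next to an α forms the benzodiazepine site and helps to hold the receptor at synapses, and δ replaces γ in receptors outside the synapse that carry tonic inhibition. The ρ subunits form receptors of their own, best known from the retina. Several of the genes lie in clusters with α subunit genes.

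The tissue labels were checked against markers that the array holds. Of 8 tested neuron marker oligos (Eno2, Snap25, Gad2), 6 passed toward cortex and 0 toward thymus in limma, and none had a difference below 0. Of all tested oligos on the array, 24.3% passed toward cortex and 23.7% toward thymus. Both oligos of Kcna3, the voltage-gated potassium channel of T lymphocytes and the array's thymocyte marker, were higher in thymus, at -2.01 and -1.63 log2 units (cortex minus thymus). Of 11 tested interneuron marker oligos 9 were higher in cortex and 1, of Vip, in thymus. Some cortex calls in both lists, among them the second oligos of both Gad2 entries, were above background on no thymus array. Cortex arrays alone brought these oligos into the test, which limits the counts as a check of the labels. Of the 2 oligos of Mbp, a myelin gene, 1 was higher in each tissue. Of the 2 of Pax5, a B cell gene, 1 was higher in thymus. Array brightness tended to be higher in cortex, but the tissues overlapped. The brightest arrays, cortex arrays 1 and 2 and thymus array 1, shared a scan setting, described below. Net signal, the spot's signal less its local background, had a median over gene spots of 830 to 2542 on the cortex arrays and 480 to 956 on the thymus arrays. Between 419 and 509 of the 590 oligos were above background on cortex arrays and between 270 and 393 on thymus arrays. The part of brightness in the differences below was not tested, and each was recomputed under other scalings.

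Detection of the members was counted on each array. Above background means a spot median more than 2 SD of the local background over that background, for the majority of an oligo's unflagged spots. Of the 20 oligos, 18, 16 and 14 were above background on cortex arrays 1, 2 and 3, and 13, 12 and 11 on thymus arrays 1, 2 and 3. The means were 16 ± 2 and 12 ± 1 (SD, n = 3 arrays each). The groups did not overlap, and the difference of 4 had p = 0.1 (exact permutation over arrays, two-sided), and 3 against 3 arrays can give no smaller p. As shares, members were at 90, 80 and 70% on the cortex arrays and 65, 60 and 55% on the thymus arrays. All 590 oligos split the same way, at 86.3, 81.0 and 71.0% against 66.6, 45.8 and 47.8%, also without overlap. Whether the members differ from the array in this was not tested. In bulk RNA, fewer cells of a type and less RNA per cell cannot be told apart. Signal was also common in thymus: 11 oligos were above background on all 3 thymus arrays and 10 on all 6 arrays. The 10 included both oligos of Gabrb2 and Gabrg3 and the second oligos of Gabrd and Gabrr1. Another 5 oligos were above background on at least 1 cortex array and no thymus array, and 2, the first oligos of Gabrr1 and Gabrr2, on no array. Among unflagged blank spots, 3.17% to 4.88% were above background on cortex arrays and 6.35% to 6.67% on thymus arrays.

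Among the members that could be tested, 3 of 6 β oligos were called toward cortex with quantile scaling, and 2 of 5 γ and 1 of 2 ρ oligos toward thymus. The limma test took in oligos that were above background on 3 or more of the 6 arrays and had 2 or more values in each tissue, and p-values were adjusted over all 465 tested oligos of the array by the method of Benjamini and Hochberg. The filter kept 14 of the 20 members. Of the 14, 3 were higher in cortex, against 24.3% of all tested oligos, and 3 were higher in thymus, against 23.7%. Of those toward cortex, the second oligo of Gabrb1 met the filter through cortex arrays alone. Together 42.9% of tested members were called, near the 48.0% of the whole array. At 8 of 14 members, or 57.1%, cortex and thymus arrays did not overlap, against 55.7% of all tested oligos. The median difference of the tested members was 0.10 log2 units, and that of all tested oligos was -0.10. The called oligos belonged to 5 of the 9 genes. The split depended on scaling. After centring each array on its control genes, 3 members passed toward cortex and 1 toward thymus. Without scaling the counts were 3 and 0, and no member reached an unadjusted p under 0.05 toward thymus in limma. After centring each array on its median oligo the counts were 2 and 4, and a β oligo, the second of Gabrb2, was among those toward thymus. Over the whole array the calls toward cortex and thymus were 113 and 110 with quantile scaling, 142 and 28 with control centring, 107 and 118 with median centring, and 117 and 0 without scaling.

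Gabrb1, which encodes the β1 subunit, was the only member gene with both oligos past the threshold. Its first oligo had normalized log2 signals of 10.78, 10.69 and 11.06 on the cortex arrays and 9.72, 9.38 and 10.02 on the thymus arrays. All cortex arrays lay above all thymus arrays, and of the thymus arrays only array 1 was above background. The difference was 1.14 ± 0.35 log2 units (SE, n = 3 arrays per tissue; adjusted p = 0.0133, limma), measured against thymus signals of which 1 of 3 was above background. Before scaling, its net signals were 3788, 2511 and 1508 on the cortex arrays and 565, 194 and 480 on the thymus arrays. The second oligo had 10.13, 10.43 and 10.55 in cortex against 8.61, 9.16 and 10.11 in thymus, with the highest thymus array just below the lowest cortex array. It met the filter through cortex alone, being above background on every cortex array and on no thymus array. Without the filter on dim oligos its adjusted p was 0.052 (limma). With no thymus array above background, its ratio has only a lower bound. The cortex mean was at least 1.47-fold that bound, which took on each thymus array the higher of this oligo's signal and the dimmest signal still above background (adjusted p = 0.0348, limma; measured difference 1.07 ± 0.40). This second call was lost under 7 of 20 alternatives, among them leaving out cortex array 2 or 3 or thymus array 1 (adjusted p = 0.111, 0.123 and 0.169).

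Gabrb2 encodes β2, a common β subunit of cortical receptors, and both of its oligos were above background on every array. The first oligo of Gabrb2 had 11.92, 12.09 and 11.77 in cortex and 11.13, 10.96 and 10.56 in thymus. The groups did not overlap, and the difference was 1.04 ± 0.35 log2 units (SE, n = 3; adjusted p = 0.0207, limma). Leaving out cortex array 1 or 2 or thymus array 3 ended that call (adjusted p = 0.0708, 0.0818 and 0.0537). The second Gabrb2 oligo went the other way without passing: 13.51, 13.51 and 14.10 in cortex against 14.32, 14.61 and 14.39 in thymus, or -0.73 ± 0.35 (adjusted p = 0.0976). Here, too, the groups did not overlap, with thymus higher. It passed toward thymus with median centring (-1.003, adjusted p = 0.0288) and with flagged spots kept (-0.86, adjusted p = 0.0454), and without scaling it differed by 0.02.

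Gabrg3, which encodes γ3, had its clearest difference toward thymus. The first oligo had 12.04, 11.47 and 12.35 in cortex and 13.71, 13.57 and 13.54 in thymus. Every thymus array was above every cortex array, by -1.65 ± 0.36 log2 units (cortex minus thymus; SE, n = 3; adjusted p = 0.00118, limma). Net signals before any scaling were 10340, 4859 and 3325 in cortex and 15439, 6072 and 8455 in thymus, and these overlap. Without scaling the difference kept its sign but not its call (-0.72, adjusted p = 0.527), and with control centring it was -1.11 (adjusted p = 0.0537). The second oligo had 10.46, 10.60 and 10.69 against 11.09, 11.51 and 11.08. The groups again did not overlap, with thymus higher, but the oligo did not pass at -0.65 ± 0.34 (adjusted p = 0.136), and it turned to 0.38 without scaling.

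Gabrg1, the γ1 gene, was dim at 3 of its 4 oligos. Both oligos of the entry printed g1p were above background on cortex arrays 1 and 2 and on no thymus array, and the first oligo of g1p2 on cortex array 1 only. None of these was tested. Their net signals were 93 to 1305 on the cortex arrays and -142 to 334 on the thymus arrays. The second g1p2 oligo was brighter, at 10.07, 9.24 and 9.72 in cortex and at 11.18 and 10.82 on thymus arrays 1 and 2. It had no value on thymus array 3, where both spots were flagged, and rested on 1 spot on thymus array 1. It was higher in thymus by -1.32 ± 0.41 (cortex minus thymus; adjusted p = 0.0146, limma). The call was lost without cortex array 2 (adjusted p = 0.0716) or thymus array 1 (adjusted p = 0.0971) and under control centring or no scaling (-0.49 and -0.37). Its net signals before scaling were 2154.5, 765 and 555 in cortex and 2057.5 and 778.5 on thymus arrays 1 and 2, and these overlap. Of the 4 oligos carrying the γ1 name, 1 was thus tested. The other 3 differed toward cortex in a fit without the filter, none past the threshold.

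Gabrd encodes δ. Its second oligo was above background on all arrays, at 10.38, 10.28 and 9.75 in cortex and 9.61, 10.38 and 10.51 in thymus. The tissues overlapped, and the difference was -0.03 (95% interval -0.82 to 0.76; adjusted p = 0.955, limma). Its sign was not stable, turning under 8 of 20 alternatives. The first oligo was above background on cortex arrays 1 and 2 only and was not tested. Its net signals were 1382, 686 and 384 in cortex and 266, -35 and 83 in thymus, so all cortex arrays were brighter before scaling.

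With quantile scaling, the ρ subunit genes held the largest difference among the members, whereas with control centring or no scaling that of Gabrb1 oligo 1 was larger (1.76 and 2.15). The second oligo of Gabrr2, for ρ2, had 10.02, 8.65 and 9.49 in cortex and 11.69, 11.58 and 11.34 in thymus. No arrays overlapped, and cortex array 2 was not above background. The difference was -2.15 ± 0.39 log2 units (cortex minus thymus; SE, n = 3; adjusted p = 0.000281, limma). It passed with control centring (-1.52, adjusted p = 0.00548) but not without scaling (-1.13, adjusted p = 0.283), where net signals were 2086, 531 and 450 in cortex and 3090, 1565 and 1415 in thymus. The first Gabrr2 oligo was above background on no array, with net signals from -1 to 269. Gabrr1, for ρ1, had its first oligo above background on no array. Its second was above background on all 6, at 11.66, 11.98 and 10.96 in cortex and 12.21, 11.84 and 11.45 in thymus. These overlapped, and the oligo did not pass, at -0.30 (95% interval -1.10 to 0.50; adjusted p = 0.56).

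The sign of each called member was the same within scan settings. A pair of numbers in the header's image name, taken here as the scan setting, had 3 values, of which setting 1 held cortex arrays 1 and 2 and thymus array 1, and setting 2 held cortex array 3 and thymus array 2. Within setting 1 the differences were 1.02 and 1.67 for the oligos of Gabrb1 and 0.88 for Gabrb2 oligo 1. They were -1.96 for Gabrg3 oligo 1, -1.52 for Gabrg1 (g1p2) oligo 2 and -2.36 for Gabrr2 oligo 2. In the same order, they were 1.68, 1.39, 0.80, -1.22, -1.10 and -2.08 within setting 2. These oligos were called on the same arrays, so the signs are not independent evidence. Without the arrays of setting 2, which had a coarser pixel grid, 1 member, Gabrb2 oligo 1, was called toward cortex and 2 toward thymus.

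For 5 member genes both oligos were tested, and whether they gave the same tissue difference was itself tested. On each array the log2 signal of oligo 2 was subtracted from that of oligo 1, and this gap was compared between tissues in a limma fit over all 172 entries with exactly 2 tested oligos. A scale factor per array cancels in it. At Gabrb2 the gap was -1.59, -1.43 and -2.33 on the cortex arrays and -3.20, -3.65 and -3.83 on the thymus arrays. The tissues did not overlap, and the oligos' tissue differences were 1.77 ± 0.49 log2 units apart (SE, n = 3; adjusted p = 0.00468, limma), or 2.11 (adjusted p = 0.000468) without scaling. It missed the threshold without the coarse-grid arrays, at 1.98 (adjusted p = 0.0641). The other 4 pairs did not pass. The differences were -1.01 at Gabrg3 (95% interval -1.99 to -0.03; adjusted p = 0.126) and 0.06 at Gabrb1 (-0.93 to 1.05; adjusted p = 0.926). The oligo pairs of the array passed in 30.2% of cases, so a disagreement such as that of Gabrb2 was common on it.

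The members are set here beside their neighbours on the chromosomes. Read in gene order from the RefSeq table of GRCm38.p6, Gabrg1, Gabra2, Gabra4 and Gabrb1 lie on chromosome 5, Gabrg3 and Gabra5 on chromosome 7, Gabra6 and Gabrb2 on chromosome 11, and Gabrr2 and Gabrr1 on chromosome 4. On chromosome 5, the annotated spans of Gabrb1 and Gabra4 share 388 bases. Both oligos of both genes were higher in cortex. No thymus array was above background for Gabra4, whose oligos were at least 2.69-fold and 2.74-fold higher and met the filter through cortex alone. The second Gabrb1 oligo also met the filter through cortex alone, and without the filter it did not pass (adjusted p = 0.052, limma). In the same cluster, the tested oligo of Gabrg1 was higher in thymus (-1.32, adjusted p = 0.0146, limma). The untested Gabrg1 oligos differed the other way in a fit without the filter, by 0.34, 0.79 and 0.84, none past the threshold. The oligos of Gabra2 did not pass, at -0.80 and -0.27. On chromosome 7, the tested Gabra5 oligo was higher in cortex by 1.89 ± 0.47 log2 units (SE, n = 3; adjusted p = 0.0037, limma) and above background on 1 of 3 thymus arrays, while its neighbour Gabrg3 was the member with -1.65. On chromosome 11, Gabra6 did not pass at -0.86 and -0.57, and of Gabrb2 the first oligo passed. On chromosomes 5 and 7 the called oligos of these neighbours thus included both directions with quantile scaling. The thymus calls of Gabrg1 and Gabrg3 were lost with control centring and without scaling.

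RefSeq promoter windows were present for 6 of the 9 member genes and are shown for Gabrb2, Gabrg3 and both ρ genes. Of Gabrb2 and Gabrg3 only the first oligo was called, in opposite directions with quantile scaling. The ρ genes are neighbours of which 1 was called. Each run is the 250 bases before an annotated start of GRCm38.p6, 5′ to 3′ on the gene's strand, with every CG dinucleotide in capitals. For Gabrb2 the first of 3 listed starts is shown. The annotated spans of Gabrb2 and Gabrr2 begin further upstream.
Gabrb2, chr11:42420190-42420439, plus strand: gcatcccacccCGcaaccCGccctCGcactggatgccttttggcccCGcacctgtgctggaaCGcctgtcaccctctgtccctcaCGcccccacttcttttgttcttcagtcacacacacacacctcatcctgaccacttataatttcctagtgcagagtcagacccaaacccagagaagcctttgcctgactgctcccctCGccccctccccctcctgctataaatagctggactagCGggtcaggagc
Gabrg3, chr7:57387216-57387465, minus strand: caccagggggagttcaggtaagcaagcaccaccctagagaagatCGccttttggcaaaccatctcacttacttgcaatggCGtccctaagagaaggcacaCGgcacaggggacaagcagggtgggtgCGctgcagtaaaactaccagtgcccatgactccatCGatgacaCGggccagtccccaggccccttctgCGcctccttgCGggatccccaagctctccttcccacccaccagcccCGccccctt
Gabrr1, chr4:33132306-33132555, plus strand: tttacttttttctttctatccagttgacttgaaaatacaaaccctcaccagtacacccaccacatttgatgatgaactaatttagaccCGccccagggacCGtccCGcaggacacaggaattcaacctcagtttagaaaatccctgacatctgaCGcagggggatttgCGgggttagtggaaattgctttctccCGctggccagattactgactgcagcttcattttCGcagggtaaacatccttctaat
Gabrr2, chr4:33062862-33063111, plus strand: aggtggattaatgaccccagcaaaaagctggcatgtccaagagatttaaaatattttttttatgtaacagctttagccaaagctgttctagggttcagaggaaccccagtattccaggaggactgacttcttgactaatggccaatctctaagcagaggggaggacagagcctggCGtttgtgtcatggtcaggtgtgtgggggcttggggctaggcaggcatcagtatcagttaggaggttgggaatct
The windows held 8 CG dinucleotides for Gabrb2, 9 for Gabrg3, 7 for Gabrr1 and 1 for Gabrr2. Over all 32851 windows of the table the median was 6, with quartiles of 2 and 16, and 43% held at least as many as Gabrb2, 40.3% as Gabrg3, 46.3% as Gabrr1 and 92.1% as Gabrr2. The Gabrb1 window beside Gabra4 held 18, a count that 21.7% of windows reach. The letters TATAAA, searched on both strands, occurred in the Gabrb2 window shown and in none of the other 3, against 12.4% of all windows. They were absent from the windows of the other listed Gabrb2 starts. These are descriptions of sequence and no measurement of promoter activity was made.

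The other genes of GABA signalling on the array, from a list written with earlier results of these data known, were called toward cortex only. Of 22 oligos 17 were tested, and 9 were higher in cortex, 0 higher in thymus and 8 did not pass, against the 24.3% and 23.7% of the whole array. At an unadjusted p under 0.05 in limma 1 of the 17, an oligo of Gabra6, was higher in thymus. The α subunits, which complete the GABA site with β, had 6 of 10 tested oligos higher in cortex, led by Gabra4 as above. Their median difference was 2.07 log2 units, against 0.10 for the members. The difference between the lists was not tested. For GABA synthesis, 3 of 4 oligos were higher, all of Gad2, a glutamate decarboxylase. The second oligo of the entry printed gad65 was at least 5.55-fold higher (adjusted p = 1.96e-06, limma), and the second of an entry printed GAD67, whose accession is that of Gad2, at least 1.62-fold (adjusted p = 0.00433). Like both Gabra4 oligos, these were above background on no thymus array and met the filter through cortex alone. All of them are among the 9 calls, so the filter had a part in that count. The 3 tested oligos of the ε and θ subunit genes did not pass, and those of Gabrq, for θ, differed by -0.76 ± 0.37 and -0.36 ± 0.38. Neither oligo of the entry printed as a GABA transporter was tested, each being above background on 1 array.

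Over the 6 arrays, the signals most like that of Gabrb1 oligo 1, the member with the smallest p toward cortex, included an oligo printed ka.2 (Pearson's r = 0.98) and one printed mglur3p (0.972). The entry printed ka.2 was named by its RefSeq match as the kainate receptor gene Grik2. For Gabrr2 oligo 2 they were an adenosine receptor entry printed balb/c (0.974), the nicotinic receptor gene Chrna6 (0.972) and a control entry printed Ppox.1 (0.967). These were chosen as the highest r among 427 oligos outside the members, over 6 arrays that fall into the 2 tissues and share their RNA pools, and are given as a description.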

How the data were processed

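Single-colour scanner files of 6 arrays were used, grouped by sample title. Per the file headers, spots were segmented automatically and the deposited values are spot intensity, median and mean, with a local background, on a linear scale without normalization. The deposited flag score is 0 or 1, its meaning is unstated, and spots with 1 were taken as flagged, as most blank spots are. Of 320 blank spots, 120 to 126 were unflagged on each array. The quantification software and the oligo sequences are not given in the sources used here. A deposited table of values for 20 oligos, with 6 per-sample columns, holds no member and was not used.

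Background was corrected on signal medians by normexp with an offset of 50 over the 1568 spots of each array (limma 3.58.1, R 4.3.3). Flagged spots (8 of the 240 member spots) and unnamed or foreign control spots were left out (genes of the printed class CONTROLS were kept and served for control centring), spots of an oligo were averaged on the log2 scale, arrays were quantile-scaled, and cortex minus thymus was tested with lmFit and eBayes, two-sided, at an adjusted p of 0.05. No member spot was saturated, at 65535. Duplicate spots of members above background differed by a median of 0.27 log2 units over 80 pairs. Precision is limited by the 6 arrays. The fits were tested on simulated data, made by adding independent noise to oligo means of scaled values. Background correction and scaling were not part of that test. The naming rule took every member, the 2 smallest p-values per role among the other GABA genes, the neighbours of members in a gene cluster and the 3 signals most like a member's. Some genes under it are not reported here, but they stay in the fits and counts. The members, lists and rules were chosen with earlier results of these data known. Gene names and promoters came from RefSeq tables of GRCm38.p6, and 7 of 10 member accessions matched. Alternatives covered scaling, background, offset, filter, flags, spot summary, blocks for replicate number and scan setting, eBayes options, and arrays left out in turn with the tested oligos kept. Files were parsed in Python 3.11.15 with pandas 2.3.3.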

Additional observations from a re-analysis of the deposited data

How the results depend on the processing

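Of 200 re-estimates of the 10 tested oligos described (20 alternatives each), 167 kept sign and side of the threshold, 19 lost the call, 2 gained it and 12 changed sign. The 6 called oligos kept their sign in all 20, and no oligo that changed sign was a called one. Without scaling, the median of all tested oligos moved from -0.10 to 0.86, calls on the array fell from 223 to 117 and member calls toward thymus from 3 to 0, and Gabrb2 oligo 2, Gabrd oligo 2, Gabrg3 oligo 2 and Gabrr1 oligo 2 turned to 0.017, 0.99, 0.38 and 0.79. With control centring the median was 0.485, 1 member was called toward thymus, and Gabrd oligo 2 and Gabrr1 oligo 2 turned to 0.60 and 0.40. Gabrd oligo 2 turned to 0.011 with signal means and to 0.14 with scan setting as a block. Without the coarse-grid arrays 1 member was called toward cortex, 1 oligo pair of 155 and 0 member pairs differed, and Gabrd oligo 2 turned to 0.26; fewer arrays entered that fit. With no filter 2 member pairs differed. The causes of these changes, also of those without the coarse-grid arrays, were not tested. Leaving out 1 array left 1 to 3 member calls toward cortex (1 without cortex array 2) and 2 or 3 toward thymus, and 27 to 49 of the oligo pairs on the array (27 without cortex array 3), against 52. Gabrd oligo 2 then lay between -0.31 and 0.17. With the replicate number as a block, 3 and 3 members, 210 oligos and 40 pairs were called. Deviations of same-numbered arrays from their tissue means correlated at 0.167, -0.0902 and 0.0106. Cortex array 1 correlated best with thymus array 1, and cortex arrays 2 and 3 with thymus arrays 1 (0.135) and 2 (0.187). Values this weak, over 3 arrays per tissue, cannot tell whether the numbers pair the arrays.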

Other observations

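The 6 members left out by the filter on dim oligos were also fitted without it, in limma over 582 oligos. The first oligos of Gabrr1 and Gabrr2 were above background on no array, so no difference is given for them. The first oligo of Gabrd differed by 0.74 ± 0.36 (adjusted p = 0.117) and the first g1p2 oligo of Gabrg1 by 0.84 ± 0.37 (adjusted p = 0.0881), neither past the threshold. The g1p oligos of Gabrg1 differed by 0.34 and 0.79, with adjusted p = 0.458 and 0.266. All of these were above background on no thymus array.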
